A study of Mus musculus with 42 samples.

Results

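The unfolded protein response (UPR) genes of the endoplasmic reticulum (ER) were followed through arsenic stress and recovery in mouse cells. They were 10 genes, Hspa5, Hsp90b1, Xbp1, Dnajb9, Dnajb11, Herpud1, Sdf2l1, Pdia4, Calr and Creld2, chosen by symbol from the 12365 genes listed by RNA-seq and from the 13501 protein-coding genes with polyadenylation sites (PASs) in the 3′READS data. In mm9 they are annotated at chr2:34627490-34632051 (Hspa5), chr10:86152954-86168254 (Hsp90b1), chr11:5420662-5425896 (Xbp1), chr12:45306884-45311055 (Dnajb9), chr16:22857918-22879707 (Dnajb11), chr8:96910338-96919277 (Herpud1), chr16:17130231-17132476 (Sdf2l1), chr6:47746141-47763511 (Pdia4), chr8:87365749-87370833 (Calr) and chr15:88650076-88657111 (Creld2). In 3′READS each read marks the end of a polyadenylated transcript, and 79 of the 61304 PASs in genes belonged to the 10 genes. Each of the 10 genes had reads in all 38 3′READS libraries and in all 4 RNA-seq libraries.

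The ER folds proteins that are secreted or placed in membranes. When unfolded proteins build up there, the sensors IRE1, ATF6 and PERK start the unfolded protein response: IRE1 splices the mRNA of Xbp1, ATF6 is cut to an active transcription factor, and PERK phosphorylates eIF2α, which slows translation in general and favours that of ATF4. ATF6 and XBP1 are known to switch on ER chaperones through promoter elements named ERSE and ERSE-II, and ATF4 switches on Ddit3 (CHOP) and other stress genes. Arsenite also damages proteins in the cytosol, where heat shock factor, not the unfolded protein response, controls the chaperones.

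NIH3T3 cells, a mouse fibroblast line, were left untreated (NT), given sodium arsenite at 250 µM during 1 h (AS), or washed after arsenite and collected 4, 8, 12 or 24 h later in recovery (RC4, RC8, RC12 and RC24). Total RNA gave 3 NT and 3 AS 3′READS libraries, numbered 1, 2 and 4, and 1 library for each recovery time in the set of replicate 4. RNA of cells labelled for 1 h with 50 µM 4-thiouridine (4sU) was split into labelled (4sU) and flow-through (Ft) RNA. The 4sU fraction was enriched in newly made RNA and the Ft fraction in pre-existing RNA. Each fraction had 1 library each for AS, RC4 and NT at 0 and 4 h. RNA bound to TIA1, a protein of stress granules, was measured beside cytoplasmic input in 2 NT and 2 AS replicates. C2C12 cells, a mouse myoblast line (the labels give C57BL/6 as the strain of both lines), were given the same treatments and studied as proliferating myoblasts (MB) and after differentiation to myotubes (MT): the cytoplasm of each gave AS, RC4 and NT libraries at 0 and 4 h, 1 of each, and untreated total RNA gave 2 libraries of MB and 2 of MT. RNA-seq gave 1 library each of NT and AS at 0 h and of NT and RC4 at 4 h.

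The 3′READS libraries held 1048335 to 6974664 PAS reads and the RNA-seq libraries 17137579 to 25194062 reads. Levels from 3′READS are given as reads scaled to the library's total of PAS reads (RPM) and need no correction for transcript length, since each read stands for 1 transcript end. The source label calls all C2C12 libraries myoblasts, and P and D in the titles separate MB from MT. Reads of 8 myotube genes summed to 11759 to 22851 RPM in MT, to 76.7 to 260 RPM in MB and to at most 21.4 RPM in NIH3T3. The 4 myoblast genes Myod1, Myf5, Pax7 and Des had no listed reads in NIH3T3. They summed to 67.2 to 162 RPM in MB and to 158 to 683 RPM in MT, and Pax7 was not listed there either. The 6 fibroblast genes did not separate the lines, with 1908 to 6123 RPM in NIH3T3 total RNA, 260 to 2295 RPM in MB and 3299 to 13731 RPM in MT. The deposited tables leave out a site below 5 reads. The study calls its replicates biological, but the labels do not say from which cultures they came, so p-values measure the spread between these libraries.

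The promoters of the 10 genes, as listed by RefSeq for GRCm38.p6 from 250 bases before to 50 after the start site, were searched on both strands for 2 elements of the unfolded protein response. ERSE, written CCAAT, 9 bases of any kind and CCACG, was found in 4 of the 10 genes and in 0.119% of all 32851 promoters. ERSE-II, written ATTGG, 1 base of any kind and CCACG, was found in 2 other members and in 0.0365% of all promoters. The matches are shown 5′ to 3′ on the strand that holds them, because these are the letters through which the family is known to be controlled. Capitals mark the fixed letters in ERSE and the whole of ERSE-II.
Hspa5, chr2:34772025-34772043, + strand: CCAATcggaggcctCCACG
Calr, chr8:84847075-84847093, + strand: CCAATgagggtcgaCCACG
Hsp90b1, chr10:86705638-86705656, − strand: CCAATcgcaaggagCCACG
Hsp90b1, chr10:86705533-86705551, + strand: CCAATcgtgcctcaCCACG
Creld2, chr15:88819520-88819538, − strand: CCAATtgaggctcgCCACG
Herpud1, chr8:94386377-94386387, + strand: ATTGGGCCACG
Dnajb11, chr16:22857852-22857862, + strand: ATTGGCCCACG
The Hspa5 match began 65 bases before the start site, that of Herpud1 52 bases before it, and the Dnajb11 match 7 bases after it. No match to either element was found in these windows of Xbp1, Dnajb9, Sdf2l1 and Pdia4. The core TGACGTGG, known as UPRE, was in 0 of the 10 promoters and in 0.676% of all, and the heat shock element, GAA, TTC and GAA with 2 bases of any kind between each, in 0 of the 10 and in 0.603% of all. These are matches of letters, and binding was not measured.

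Transcript ends were read in mm9. The sites below are the 2 PASs with most reads of Hspa5, Dnajb9, Dnajb11 and Sdf2l1, shown because their isoform shares rest on them, and each line gives the last 30 bases before cleavage. The proximal site (pPAS) gives the short isoform and the distal site (dPAS) the long isoform. Capitals mark a polyadenylation signal, AATAAA or ATTAAA, where these bases held one, as 52.5% of the 46188 3′UTR PASs of all genes did within 45 bases.
Hspa5 pPAS, chr2:34631947-34631976, + strand: taagtgacaccAATAAAtgtttgttattta
Hspa5 dPAS, chr2:34632022-34632051, + strand: tattttagataactaaaatttaagactgga
Dnajb9 pPAS, chr12:45306882-45306911, − strand: taagagaaactataaatatttacaacctga
Dnajb9 dPAS, chr12:45306546-45306575, − strand: tcccctcaaAATAAAcacacatacataaca
Dnajb11 pPAS, chr16:22872160-22872189, + strand: tacatcttgttgttattttttttttcttga
Dnajb11 dPAS, chr16:22872413-22872442, + strand: ctttggtaatAATAAAatctgatatgggta
Sdf2l1 pPAS, chr16:17130484-17130513, − strand: cctttatgATTAAAgaatgttggtctggga
Sdf2l1 dPAS, chr16:17130231-17130260, − strand: cctgttcAATAAActcatttttattactaa
Both Dnajb9 sites lay past the end of the annotated gene and the other 6 in the last exon. The short isoform held most reads of Hspa5, with 91.3% of the gene's reads over all libraries, and the long isoform most reads of Dnajb9, Dnajb11 and Sdf2l1, with 68.8, 70.7 and 85.7%. Calr, Herpud1, Xbp1 and Creld2 ended almost entirely at 1 site each, which took 99.4, 99.9, 98.6 and 100.0% of their reads.

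In untreated cells the family spanned a wide range of levels. Calr, a calcium-binding chaperone for glycoproteins, was at 1397 ± 460 RPM (SD, n = 3) in NIH3T3 total RNA, above 99.6% of the genes with reads. Hspa5 (BiP), the HSP70 chaperone of the ER that holds the sensors inactive, was at 977 ± 129 RPM, and its values did not separate from those of Calr. Creld2, an ER protein with EGF-like domains, Dnajb11 (ERdj3), a co-chaperone of BiP, and Pdia4 (ERp72), a protein disulfide isomerase, lay together at 180 ± 81.3, 176 ± 107 and 174 ± 107 RPM. Herpud1, a membrane protein of ER-associated degradation, was at 92.1 ± 59.4 RPM and Xbp1, the transcription factor, at 73.8 ± 88.5 RPM. Sdf2l1, an ER partner of the co-chaperones, was at 33.3 ± 13.1 RPM. Dnajb9 (ERdj4), a co-chaperone that is itself a known target of XBP1, was lowest at 12.0 ± 5.55 RPM. Neighbours in this order from Creld2 to Sdf2l1 overlapped in their ranges, whereas Sdf2l1, at 18.8 RPM or more, lay above Dnajb9, at 15.6 RPM or less. Xbp1 varied most, from 13.9 and 32.2 RPM in replicates 2 and 1 to 175 RPM in replicate 4.

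Hsp90b1 (GRP94), the HSP90 of the ER, stood apart between the assays. It had 122039 and 130923 RNA-seq reads on its coding sequence in the NT libraries at 0 and 4 h, the most of the 10 genes, but 21.3 ± 14.1 RPM in 3′READS, where it was 9th of 10. Its 1798 PAS reads over all 38 libraries were spread over several sites, led by chr10:86153559 with 39.7% of them, and each of its 3 leading ends was found at 1 place in the genome. RNA-seq reads were not divided by gene length, so the comparison concerns the order within each assay only, and what sets the low PAS count was not tested. Its 3′READS values rest on 9 to 128 reads a library.

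**Figure D1:**
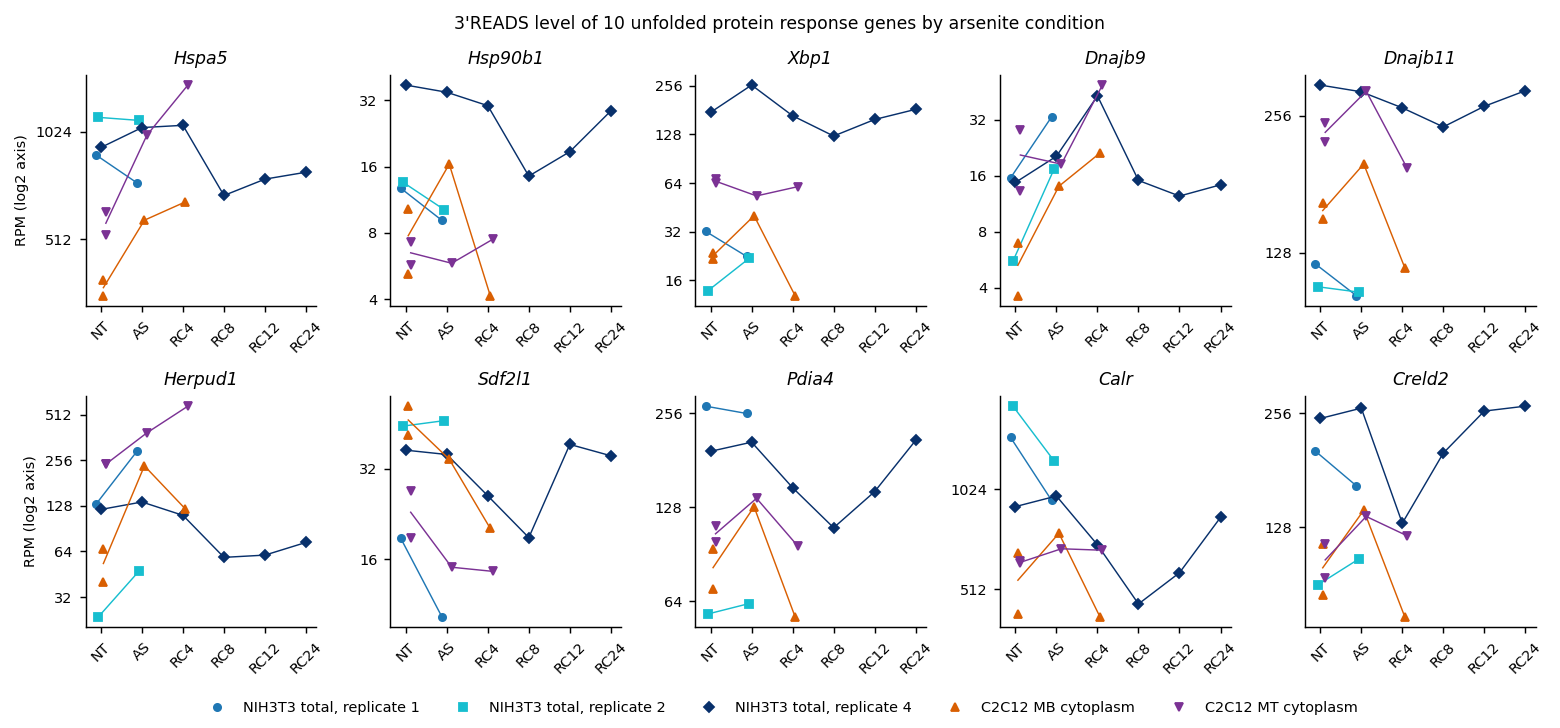
Level of each of the 10 genes in 3′READS (RPM, log2 axis) by condition, with 1 symbol per library, colours for the 3 NIH3T3 total RNA replicates and for C2C12 MB and MT cytoplasm, and lines through the mean of each set. Dnajb9 and Hspa5 are higher at RC4 than at NT in both C2C12 cultures and in NIH3T3 replicate 4, and 8 of the 10 genes are lowest at RC8 in the NIH3T3 time course. That course has 1 library a time, and the share of all genes lowest at RC8 was not counted.

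The first question was which of the genes had changed at 4 h of recovery. In a fit over 3 cultures, NIH3T3, MB and MT, Dnajb9, Herpud1 and Hspa5 were called higher and the other 7 did not pass the test. NIH3T3 entered with total RNA, MB and MT with cytoplasmic RNA. Both NT libraries of MB and MT, at 0 and 4 h, counted as untreated, while NIH3T3 had NT at 0 h only. Differences between the cell lines thus cannot be told apart from those of RNA fraction and control time. Herpud1 had no higher RPM in NIH3T3 itself. The comparison used edgeR's quasi-likelihood test with culture as a block and Benjamini-Hochberg adjustment over 9564 genes. It called 3 of the 10 genes higher, where 5.88% of all genes were called higher, and 0 lower, where 3.34% were.

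Dnajb9 rose 3.30-fold (log2 1.72 ± 0.335 (SE), adjusted p = 0.00656 by edgeR). In NIH3T3, for which replicate 4 entered this fit, it was at 14.7 RPM in NT and at 43.0 RPM in RC4. In MB the NT libraries had 3.64 and 6.95 RPM and RC4 21.2 RPM. In MT the NT libraries had 13.3 and 28.1 RPM and RC4 49.1 RPM. RC4 was above every NT library of its own culture in all 3 cultures, by least in MT.

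Hspa5 rose 2.09-fold (log2 1.06 ± 0.17, adjusted p = 0.00215 by edgeR). In NIH3T3 it was at 926 RPM in NT and at 1068 RPM in RC4. This is a log2 ratio of 0.45 after scaling by the median ratio and 0.21 by the library total. In MB it went from 393 and 356 RPM in NT to 652 RPM in RC4. In MT it went from 526 and 610 RPM in NT to 1384 RPM in RC4. Here too RC4 was above each NT library of its culture, and the rise was largest in MT.

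Herpud1 rose 2.16-fold (log2 1.11 ± 0.30, adjusted p = 0.0361 by edgeR), with higher values in the C2C12 cultures alone. Without NIH3T3 its log2 change was 1.46 (adjusted p = 0.0164 by edgeR). MB had 66.7 and 39.98 RPM in NT and 122 RPM in RC4. MT had 242 and 241 RPM in NT and 582 RPM in RC4. NIH3T3 had 121 RPM in NT and 111 RPM in RC4, a log2 ratio of 0.12 after scaling by the median ratio and −0.13 by the library total.

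The other 7 genes were near the median of all genes or below it. Their log2 changes were −0.58 ± 0.23 for Sdf2l1 (adjusted p = 0.157), −0.08 for Pdia4, −0.08 for Creld2, −0.06 for Xbp1, −0.04 for Dnajb11, 0.00 for Hsp90b1 and 0.05 for Calr, with adjusted p from 0.157 to 1.0 by edgeR. The median of the 10 was −0.02 and that of all genes −0.05. On simulated counts this fit recovered 38.1% of 2-fold changes, so a gene that did not pass may still have changed. Scaling by library total placed the median of all genes at −0.30. With that scaling Herpud1 no longer passed (adjusted p = 0.0919), and Sdf2l1 passed as lower (log2 −0.83, adjusted p = 0.0455). Without MB none of the 3 passed (adjusted p = 0.0816 for Hspa5, 0.0934 for Dnajb9 and 0.162 for Herpud1), and without MT Dnajb9 alone did (adjusted p = 0.0371, against 0.079 for Hspa5 and 0.304 for Herpud1). With NT libraries of the same time alone Herpud1 did not pass (adjusted p = 0.177). In bulk RNA, fewer cells of a type and less RNA per cell cannot be told apart.

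**Figure D2:**
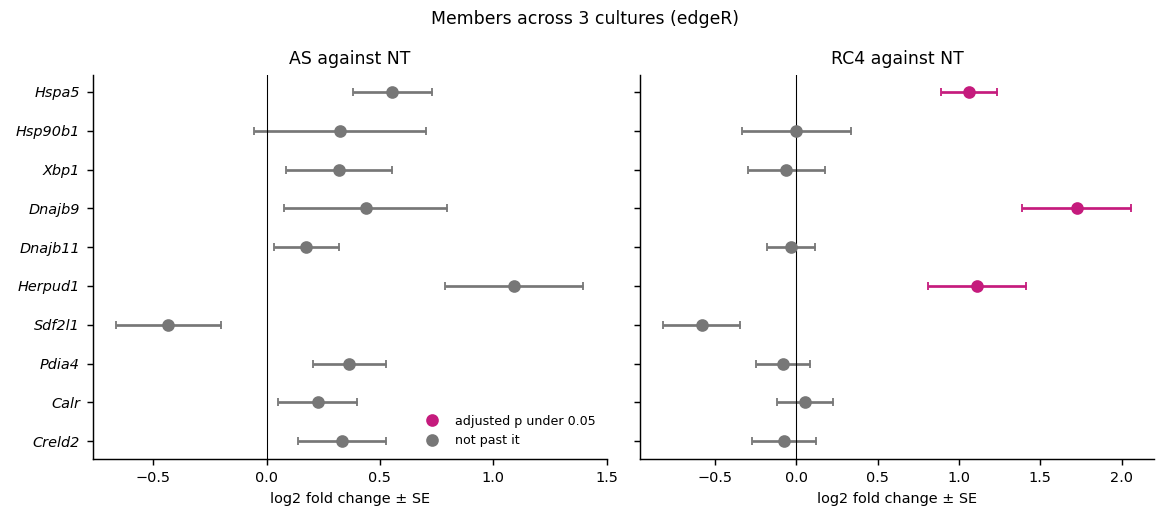
Log2 fold change with its standard error for each of the 10 genes, AS against NT (left) and RC4 against NT (right), in the fit over NIH3T3, MB and MT libraries, with genes past an adjusted p of 0.05 in colour. Dnajb9, Hspa5 and Herpud1 pass at RC4 at 1.72, 1.06 and 1.11, and none passes at AS.

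Directly after the 1 h of arsenite none of the 10 genes passed in the same cultures. The test called 0.261% of 9564 genes higher and 0.0209% lower. Herpud1 had the largest value, log2 1.09 ± 0.31 (adjusted p = 0.259), followed by Hspa5 at 0.56 ± 0.17 (adjusted p = 0.312, edgeR). DESeq2 called Hspa5 alone of the 10 (log2 0.56, adjusted p = 0.0445), where it called 0.889% of genes higher. At an unadjusted p of 0.05 edgeR had 460 genes higher and 395 lower. The median of the 10 genes was 0.33 and that of all genes 0.01.

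In NIH3T3 total RNA, 3 AS libraries were compared with 3 NT libraries, and again none of the 10 genes passed. Without a replicate block edgeR called 0 of 9111 genes (0.0%), 19 were higher and 0 lower at an unadjusted p of 0.05, and DESeq2 called 0, with 27 higher and 1 lower at that unadjusted p. With the replicate number as a block, 27 genes (0.296%) were called higher and 1 (0.011%) lower, and still 0 of the 10.

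Dnajb9 had the largest change of the 10 genes under the block (log2 1.14 ± 0.28, adjusted p = 0.194 by edgeR). It was at 15.6, 5.58 and 14.7 RPM in the NT libraries of replicates 1, 2 and 4 and at 33.1, 17.3 and 20.4 RPM in AS. It was higher in AS in 3 of 3 pairs, and the groups did not overlap. The share of all genes for which this held was not counted.

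Herpud1 followed (log2 0.81 ± 0.21, adjusted p = 0.233 by edgeR with the block). It was at 131, 23.7 and 121 RPM in NT and at 294, 47.9 and 136 RPM in AS. AS was higher in 3 of 3 pairs, which was not counted over all genes, and the groups overlapped, with replicate 2 low in both. Calr went from 1465, 1819 and 907 RPM to 948, 1246 and 976 RPM, lower in 2 of 3 pairs (log2 −0.36 ± 0.16, adjusted p = 0.724). Hspa5 was at 882, 1124 and 926 RPM in NT and at 736, 1102 and 1052 RPM in AS, with a log2 change of −0.03.

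The RNA-seq libraries, read on coding sequences of NIH3T3, had no replicates and give ratios without a test. After scaling by the median ratio, Dnajb9 alone was past 2-fold at AS, where 3.71% of 11204 genes were past 2-fold higher and 1.67% lower. Its counts were 186 in NT and 539 in AS, a 2.49-fold ratio, while the NT library at 4 h had 150. Xbp1, with 838 and 1257 reads, was at log2 0.37, and Herpud1, with 467 and 677 reads, at 0.32. The other 7 were between −0.16 and 0.23.

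At RC4 the counts of members past 2-fold, 1 higher and 2 lower, were near the shares of all genes. Dnajb9 had 678 reads against 150 in NT at 4 h, a 5.38-fold ratio, and was the only member past 2-fold higher, where 15.9% of 10988 genes were. Hspa5 was at log2 0.85, with 93319 reads against 61551, and Herpud1 at 0.56, with 497 against 400. Sdf2l1, with 215 reads against 618, and Creld2, with 709 against 1825, were past 2-fold lower, at log2 −1.27 and −1.11, where 14.6% of all genes were past 2-fold lower. Dnajb11 was at −0.86 and Pdia4 at −0.57. Xbp1 was at −0.51, Hsp90b1 at −0.23 and Calr at −0.04. The ratios between both NT libraries, at 4 and 0 h, ran from −0.19 to 0.70 over the 10 genes, with Sdf2l1 the highest, so its lower value at RC4 is set against a high control.

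These values are relative to the median gene. By library total the median of all genes in this comparison was −0.80, 6 members were past 2-fold lower, where 41.1% of all genes were, Dnajb9 stayed past 2-fold higher, where 5.57% were, and Herpud1 turned from higher to lower. In CPM, Hspa5 was at 3592 in NT and 3704 in RC4, whereas Calr was at 4729 and 2630.

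The time course in NIH3T3 total RNA, 1 library each and no test, showed the lowest values of most of the 10 genes at RC8. At RC4 Dnajb9 was past 2-fold higher, at log2 1.79, where 10.6% of 8228 genes were, and 0 of the 10 were past 2-fold lower (8.76% of genes). At RC8 Hsp90b1, Herpud1, Calr and Sdf2l1 were past 2-fold lower, at −1.44, −1.11, −1.04 and −1.03, where 4.41% of 8405 genes were, and 0 were past 2-fold higher (5.41% of genes). Hsp90b1 stood at 37.5 RPM in NT and 14.5 RPM at RC8, which is 23 reads.

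The remaining genes at RC8 lay between −0.88 for Pdia4 and −0.03 for Dnajb9, so all 10 were below 0 after scaling by the median ratio. The median of all genes was 0.01 by this scaling, and the share of all genes below 0 was not counted. Dnajb9 turned above 0 by library total, and 2 genes were then past 2-fold lower, where 3.53% of all genes were. At RC12 Hsp90b1 (−1.05) and Herpud1 (−1.04) were past 2-fold lower, where 3.3% of genes were, and 0 higher (2.76%). At RC24 none of the 10 was past 2-fold in either direction, where 2.74% of genes were higher and 2.13% lower, and the values ran from −0.76 for Herpud1 to 0.08 for Pdia4.

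The cytoplasm of C2C12 cells was then looked at culture by culture, against the NT library of the same time. In MB after AS, Dnajb9 and Herpud1 were past 2-fold higher, at log2 1.91 and 1.77, where 4.31% of 8353 genes were, and 0 lower (3.16%). At RC4 in MB Dnajb9 (1.94), Herpud1 (1.95) and Hspa5 (1.21) were past 2-fold higher, where 11% of 7590 genes were, and Sdf2l1 (−1.01) was past 2-fold lower (12% of genes). By library total, with the median of all genes at −0.33, 2 were past 2-fold higher, where 5.9% of genes were. In MT after AS none was past 2-fold, where 4.98% of genes were higher and 4.37% lower, and Hspa5 was at 0.91.

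At RC4 in MT Herpud1 (1.43) and Hspa5 (1.33) were past 2-fold higher, where 7.8% of 9052 genes were, and 0 lower (8.27%). Dnajb9 was at 0.96 there, and its NT libraries at 4 and 0 h differed by 1.12 in the same direction. In MB, the NT libraries differed by 0.98 for Dnajb9, −0.94 for Hsp90b1 and −0.70 for Herpud1. These differences between untreated libraries are as large as some of the changes given, and with 1 library a condition they set the precision.

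The median changes of the wider ER gene groups were small, from −0.15 to 0.21, in contrast to those of the ATF4 branch and the cytosolic chaperones. At RC4 across the 3 cultures, edgeR called 10 of 10 genes of the PERK-ATF4-CHOP branch higher, where 5.88% of all genes were. Their median log2 change was 2.85 against −0.05 for all genes. The branch is named after PERK, but no kinase was measured, and which kinase acted was not tested. Atf3, a stress-induced repressor of transcription, rose by 6.98. Trib3, a pseudokinase that inhibits ATF4, rose by 3.86, and Ppp1r15a (GADD34), which reverses eIF2α phosphorylation, by 3.83. Sesn2 rose by 3.20, Chac1, which degrades glutathione, by 2.95, and Asns, the asparagine synthetase, by 2.74.

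Of the cytosolic heat shock genes 11 of 12 tested were higher, with a median of 3.59, or of 3.49 without Hspa1a. Hspa1a is among those called, but it was not listed in any NT library of these cultures. It entered the test through treated libraries alone, so its call carries no weight. Of the 11 genes listed in NT, all but Hspa4l were called higher. Hspa1a shares nearly identical sequence with Hspa1b, so the split of reads between them is uncertain. Hspa1b, an inducible HSP70, rose by 7.36. Dnajb1, its HSP40 partner, rose by 5.17, Hsph1, its exchange factor, by 4.81, the small heat shock protein gene Hspb1 by 4.77 and the co-chaperone gene Bag3 by 3.69. Hspb1 had no listed reads in the NIH3T3 time course, so its value rests on C2C12.

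The same test called 5.88% of all genes higher and 3.34% lower. Of 14 other ER folding genes 1 was higher, Pdia3 (log2 0.62), a disulfide isomerase that works with calreticulin, and 0 were lower, with a median of 0.17. Of 13 genes of ER-associated degradation 3 were higher, the ubiquitin-conjugating enzyme gene Ube2j1 (0.96), Faf2 (0.88) and Ubxn4 (0.82), with a median of 0.21. Of 18 genes of translocation, signal peptidase and ER export, Kdelr2 (0.60), a receptor that returns ER chaperones from the Golgi, was higher, with a median of 0.05. Of 8 sensors and regulators, Mbtps1 (−0.93), the protease that cuts ATF6, was lower, and the median was −0.15.

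After AS in NIH3T3 total RNA with the replicate block, 0.296% of all genes were called higher. Among them were 4 of the 10 genes of the ATF4 branch, Ddit3 (log2 1.73), Chac1 (1.70), Atf3 (3.29) and Ppp1r15a (2.00), and 2 of 10 heat shock genes, Hspa8 (2.504) and Dnajb1 (2.64). These are all the genes of both groups that passed. None of the genes of the 4 ER groups was called in that fit. In the RNA-seq ratios at RC4, 10 of 10 genes of the ATF4 branch and 12 of 12 heat shock genes were past 2-fold higher, where 15.9% of all genes were. Their medians were 3.00 and 3.91, against −0.37 for the 10 UPR genes and 0.01 for all genes.

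**Figure D3:**
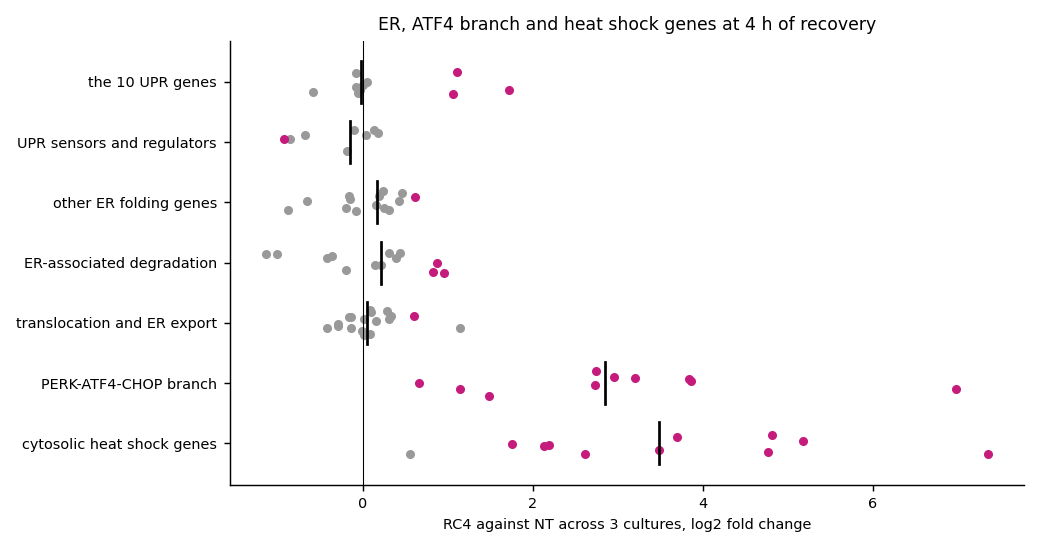
Log2 fold change of each tested gene of 7 groups at RC4 against NT across 3 cultures, with 1 point per gene, coloured where the adjusted p is under 0.05, and a black bar at the group's median; Hspa1a, not listed in untreated cells, is left out. The PERK-ATF4-CHOP branch and cytosolic heat shock genes lie to the right, with medians of 2.85 and 3.49, and the UPR and ER groups lie around 0.

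Newly made RNA was examined next. In the 4sU fraction Dnajb9 was past 2-fold higher after AS (log2 1.51, where 5.8% of 9330 genes were), with 227 RPM in AS against 87.5 RPM in NT. Hspa5 was at 0.75, with 2028 RPM against 1329 RPM, and Herpud1 at 0.62, with 441 RPM against 315 RPM. The other 7 were between −0.58 and 0.12, so 0 were past 2-fold lower (6.25% of genes). By library total the median of all genes was −0.14 and Dnajb11 and Pdia4 changed sign.

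At RC4 Dnajb9 was past 2-fold higher in 4sU RNA, at log2 1.99, where 13.1% of 9959 genes were. Its level was 154 RPM in RC4 and 49.2 RPM in the NT library at 4 h. Sdf2l1 (−1.13) and Xbp1 (−1.09) were past 2-fold lower, where 12.3% of genes were. Xbp1 had 50.5 RPM in RC4 and 138 and 137 RPM in the NT libraries, whereas Sdf2l1 differed by −1.11 between its NT libraries, from 30.6 to 15.2 RPM. Hspa5 was at 0.94 and Calr at −0.82, and their NT libraries differed by −0.76 and −0.80. By library total, with the median of all genes at −0.32, 3 were past 2-fold lower, where 21.3% of genes were.

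The Ft fraction is enriched in RNA made before the labelling hour. In it Dnajb9 was past 2-fold higher at AS (log2 1.53, where 4.98% of 9302 genes were) and at RC4 (2.75, where 15.1% of 9070 genes were). At AS the labelling hour was that of arsenite, and Dnajb9 was similarly higher in 4sU (log2 1.51). Whether Ft also held newly made RNA was not tested. In Ft Dnajb9 was at 15.7 and 14.5 RPM in NT, at 45.4 RPM in AS and at 71.6 RPM in RC4, so both treated libraries were above both NT libraries. Hspa5 was at −0.19 at AS and at 0.93 at RC4, with 1393 RPM against 992 RPM. None of the 10 was past 2-fold lower in Ft, where 3.53% of genes were at AS, although Sdf2l1 (−0.94) and Creld2 (−0.92) were close at RC4, where 11.9% of genes were past it. By library total, with the median of all genes at −0.41, 3 were past it, where 24.9% of genes were.

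The ratio log2(Ft/4sU), adjusted for the number of Us in the transcript, measures how much of an mRNA is pre-existing, and is low for transcripts that turn over fast. Dnajb9 was at −2.34 in NT at 0 h, lower than all but 1.4% of 9320 genes, and at −1.61 in NT at 4 h. Herpud1 was at −1.56 and −1.20, in the lowest 6.6 and 11%, and Xbp1 at −0.99 and −0.97, in the lowest 15.3 and 15.0%. Calr was at the other end, at 1.14 and 1.47, above 90.1 and 95.9% of genes, and Dnajb11 at 0.87 and 0.92.

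Under AS Herpud1 moved to −2.04 and Hspa5 to −0.92, from 0.04 and 0.44 for Hspa5 in NT, while Dnajb9 stayed at −2.35. At RC4 Dnajb9 was at −0.90, Herpud1 at −0.61 and Hspa5 at 0.39, each closer to or above the NT values, and Calr was at 1.96. There was 1 pair of libraries a condition and no test. A ratio taken right after a change in synthesis holds both synthesis and decay. Without the adjustment for Us, the percentiles among all genes in NT at 0 h moved from 1.4 to 3.1 for Dnajb9, from 6.6 to 13.4 for Herpud1, from 15.3 to 23.8 for Xbp1 and from 32.0 to 59.5 for Sdf2l1. In NT at 4 h they moved from 5.4 to 9.8 for Dnajb9, from 11 to 21.1 for Herpud1 and from 15.0 to 25.1 for Xbp1.

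**Figure D4:**
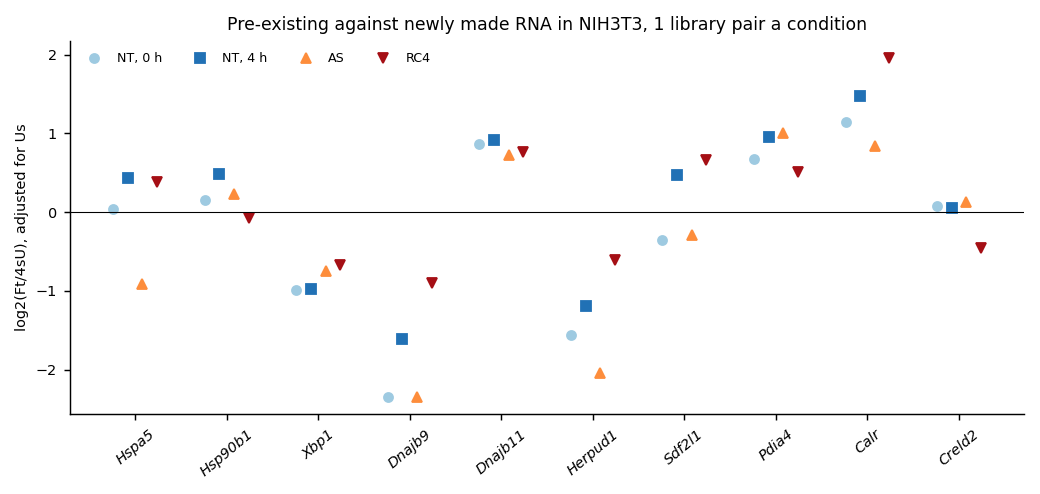
Adjusted log2(Ft/4sU) of each of the 10 genes in NT at 0 and 4 h, AS and RC4, 1 library pair each. Dnajb9, Herpud1 and Xbp1 lie below 0 in every condition, Calr and Dnajb11 above 0, and Hspa5 falls to −0.92 at AS alone.

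Binding to TIA1 was compared with input in NT and AS cells. Hspa5 was less abundant in TIA1-bound RNA than in input in NT cells, at 149 RPM against 279 RPM in replicate 1 and at 110 RPM against 561 RPM in replicate 2. Both replicates were lower, by different amounts. The log2 ratio of −1.85 ± 0.47 did not pass by edgeR (adjusted p = 0.0657), which called no member, where 1.47% of 9589 genes were called lower and 1.79% higher. Input and TIA1-bound RNA were taken from the same lysate. The replicate number as a block joined the NT and AS lysates of the same number, and a block for each lysate was not fitted. With the number as a block edgeR called Hspa5 lower (log2 −1.74 ± 0.34, adjusted p = 0.00606) and no other member. That fit called 9.42% of genes lower and 9.27% higher. DESeq2 called Hspa5 alone of the 10 (log2 −1.89, adjusted p = 0.00242), where it called 6.79% of genes lower and 6.49% higher.

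In AS cells Hspa5 was at 306 RPM against 389 RPM and at 391 RPM against 770 RPM, with a log2 ratio of −0.83 ± 0.46 (adjusted p = 0.354). The difference between AS and NT, 1.01 ± 0.65, did not pass (adjusted p = 1.0, edgeR). For Dnajb9 the TIA1-bound level was above input in 4 of 4 replicates, by a log2 ratio of 1.62 ± 0.75 in NT (adjusted p = 0.242) and 0.71 ± 0.73 in AS (adjusted p = 0.654), but the NT input of replicate 2 held 2.77 RPM, which is 7 reads. Calr was below input in 4 of 4 replicates, at −0.91 ± 0.61 in NT and −0.79 ± 0.61 in AS, and did not pass.

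No member was called for TIA1 in AS, where 0.188% of genes were called higher and 0.407% lower by edgeR, 9.67 and 7.37% with the replicate block and 5.21 and 6.21% by DESeq2. The test of the difference in binding between AS and NT called 0 genes by edgeR, with 137 higher and 77 lower at an unadjusted p of 0.05, and DESeq2 called 5 lower (0.0521%), none of them a member. In cytoplasmic input, AS against NT, no member was called either, where 1 gene (0.0104%) was higher and 0 lower. Herpud1 was at 31.0 and 80.8 RPM in NT input and at 48.6 and 142 RPM in AS input, and Hspa5 at 279 and 561 RPM and at 389 and 770 RPM.

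The 3′UTR isoforms of the family did not shift in a replicated way. In NIH3T3 total RNA 5 of the 10 genes had more than 5 reads of both isoforms in all 6 libraries, and 0 changed under AS by Fisher's exact test in all 3 pairs, where 3 of 1669 genes (0.18%) shortened and 1 (0.0599%) lengthened. The long isoform of Dnajb9, with 336 nt added to its 3′UTR, made up 54.5, 48.6 and 68.2% of its reads in NT and 76.1, 60.4 and 70.8% in AS. It was higher in 3 of 3 pairs, with a two-sided Fisher's exact p of 0.008, 0.2433 and 1.0.

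The Dnajb9 isoforms differed between MB and MT in untreated total RNA, and in cytoplasm the order of the cultures varied. In total RNA the long isoform made up 78.6% (95% Wilson confidence interval 64.1 to 88.3%) and 75.4% (64.0 to 84.0%) in MB and 41.4% (33.7 to 49.5%) and 49.2% (42.0 to 56.4%) in MT, so the intervals of MB and MT did not overlap. In untreated cytoplasm it made up 100.0% of 6 reads in MB and 54.8% in MT at 0 h, but 50.0% in MB and 74.7% in MT at 4 h. It made up 75.0% in MB and 49.0% in MT after AS, and 52.2% in MB and 60.8% in MT at RC4. The intervals cover counting error only, and this pattern was seen in the data and not tested.

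For Hspa5 the long isoform, 75 nt longer, took 1.49 to 5.07% of reads in the 10 NIH3T3 total RNA libraries, 9.70 to 15.6% in the 4 4sU libraries, 8.44 to 10.8% in Ft and 11.4 to 18.3% in C2C12 cytoplasm. The 4sU, Ft and C2C12 cytoplasm ranges did not overlap with that of NIH3T3 total RNA, nor did the 6.36 to 9.32% in C2C12 total RNA. The range in TIA1 and input libraries, 4.82 to 11.9%, did overlap with that of NIH3T3 total RNA. The range in C2C12 total RNA overlapped with Ft. Both total RNA sets share the fraction and differ in cell line and set of libraries. Otherwise the fraction of RNA and the set of libraries cannot be told apart. Within total RNA the 3 pairs of AS and NT differed by −1.62, −0.13 and 0.15 percentage points. The long isoform of Dnajb11, 253 nt longer, took 64.2 to 91.3% of reads in NIH3T3 total RNA, where replicate 1 (91.3% in NT and 88.7% in AS) was above the rest.

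Finally, MT were compared with MB without stress. Of the 10 genes 4 were higher and 3 lower in MT, where 32.4 and 29.4% of 10100 genes were called higher and lower by edgeR, so the share of members called is near that of all genes. Herpud1 rose 6.78-fold (log2 2.76 ± 0.11, adjusted p = 6.66e-12), from 93.7 and 112 RPM in MB to 603 and 644 RPM in MT. Dnajb9 rose 2.92-fold (1.54 ± 0.18, adjusted p = 2.19e-06), from 14.5 and 17.01 RPM to 38.9 and 43.6 RPM. Hspa5 rose from 742 and 698 RPM to 1139 and 1079 RPM (log2 0.79) and Xbp1 from 50.6 and 41.7 RPM to 62.2 and 81.3 RPM (0.81). MB and MT libraries, 2 of each, did not overlap for any of these 4, and the share of all genes without overlap was not counted.

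Sdf2l1 fell 6.84-fold in MT (log2 −2.77 ± 0.23, adjusted p = 3.41e-08), from 39.5 and 38.7 RPM to 5.45 and 4.74 RPM. Creld2 fell from 195 and 205 RPM to 94.6 and 76.98 RPM (−1.06), and Calr from 1504 and 1139 RPM to 653 and 686 RPM (−0.82). Pdia4 and Hsp90b1, at −0.04 and −0.37, did not pass (adjusted p = 0.841 and 0.219). Dnajb11, at 0.25, missed the threshold (adjusted p = 0.0528, edgeR).

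In the groups around the family, 6 of 8 sensors and regulators and 9 of 13 genes of ER-associated degradation were higher in MT. Their medians were 1.02 and 0.80 against 0.04 for all genes, of which 32.4% were called higher and 29.4% lower. Of 14 other ER folding genes 1 was higher and 6 lower (median −0.24). Of the ATF4 branch 9 of 10 were higher (median 2.80) and of the cytosolic heat shock genes 8 of 11 lower (median −1.05).

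**Figure D5:**
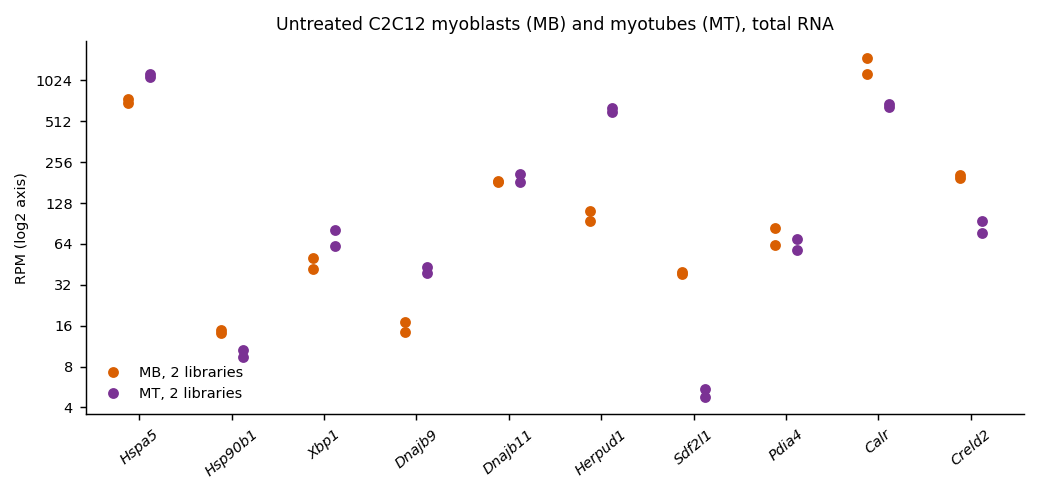
Level (RPM, log2 axis) of each of the 10 genes in untreated C2C12 total RNA, with 1 point per library, 2 of MB and 2 of MT. Herpud1 rises from about 100 to over 600 RPM and Sdf2l1 falls from 39 to about 5 RPM, and Hspa5 passes Calr as the most abundant of the 10 in MT.

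Over the 18 libraries of the arsenite sets in total and cytoplasmic RNA, with log2 levels centred on the untreated libraries of each set, the correlation of each gene with the mean of the other 9 ran from 0.79 for Hsp90b1 and 0.77 for Pdia4 down to 0.14 for Dnajb9 and −0.02 for Sdf2l1. Hspa5 was at 0.54 and Herpud1 at 0.68. The 5 genes outside the family whose profile was most like its mean, of 5872 genes, were Fbln5, Bgn, Col6a1, P4hb and Nucb2, with r of 0.91, 0.91, 0.91, 0.91 and 0.90. The libraries share sets, depth and conditions, so these values describe likeness only.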

How the data were processed

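Per the labels, 38 3′READS libraries and 4 RNA-seq libraries of NIH3T3 and C2C12 cells were used. The authors deposited read counts: for 3′READS, counts per PAS after Cutadapt trimming, removal of inserts under 23 nt, bowtie2 local alignment to mm9, a mapping quality of at least 10, at least 2 nongenomic Ts and merging of sites within 24 nt, and for RNA-seq, strand-specific STAR reads on coding sequences. The lowest listed 3′READS count was 5. Here 99725 positions were merged to 83916 clusters, of which 61304 fell in genes, up to 4 kb past the gene end, and 883 ambiguous ones were left out. Counts were summed per gene and tested with edgeR 4.0.16 (quasi-likelihood, TMM, filterByExpr) in R 4.3.3, with DESeq2 1.42.0 as an alternative. Depth was 1048335 to 6974664 PAS reads and sets the counting error.

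Single libraries were compared by median ratio, and genes past 2-fold were counted. The 10 genes and the other gene lists were chosen with earlier results of these data known. Named genes were the 10 members, and, from each other list, at most 6 genes past the threshold with the largest changes. Same-numbered total RNA libraries deviated together (r = 0.851, 0.850 and 0.778 for replicates 1, 2 and 4), so the numbers pair them. TIA1 and input RNA of one number are pairs too, since the authors split each lysate for both (r = 0.309 in NT and 0.342 in AS). AS and NT input (r = 0.473) and MB and MT (r = 0.053) share a number only. On simulated counts with 200 changed genes the total RNA comparison recovered 0.0% of 2-fold and 0.0% of 4-fold changes without the block (8719 genes). With the block it recovered 68.4 and 95.8% (8867 genes). The RC4 fit across 3 cultures recovered 38.1% of 2-fold and 75.3% of 4-fold changes (9201 genes). Alternatives were other scalings, no filter, a limit of 1 kb past the gene, DESeq2, the replicate block, each replicate or culture left out, a 1.5-fold limit, other untreated libraries and no adjustment for Us.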

Additional observations from a re-analysis of the deposited data

Results flagged for a closer look

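Calr at RC4 had values of opposite sign in the cell lines with one choice of control, which was the mean of both NT libraries in C2C12, NT at 4 h in 4sU and Ft, and NT at 0 h of replicate 4 in total RNA. In NIH3T3 its log2 change against NT, after subtracting the median of all genes, was below 0 in 3 of 3 libraries (−0.13 in total RNA, −0.86 in 4sU and −0.33 in Ft, mean −0.44). In C2C12 it was above 0 in 2 of 2 libraries (0.01 in MB and 0.31 in MT, mean 0.16), a difference of 0.60. The difference was not tested. Against the NT library of the same time Calr was at −0.30 in MB and 0.26 in MT, so 1 of 2 was above 0 and the signs of the cell lines were then not opposite. The RNA-seq ratio in NIH3T3 was −0.04. The 4sU and Ft libraries are fractions of the same labelled RNA and not replicates, and the lowest value, −0.86, is that of 4sU. The C2C12 values are from cytoplasm, so cell line and kind of RNA cannot be told apart.

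Dnajb11 in C2C12 cytoplasm, against the mean of both NT libraries, was above 0 after AS in both cultures (0.30 in MB and 0.28 in MT, mean 0.29) and below 0 at RC4 in both (−0.04 and −0.07, mean −0.06). The change at RC4 minus that at AS was −0.35. Against the NT library of the same time the values were 0.35 in MB and 0.21 in MT after AS and −0.14 and −0.04 at RC4, with the same signs. The difference was not tested. No group of samples was large enough to look for a single library far from the others.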

How the results depend on the processing

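No called value changed direction under any alternative, and 964 values for single genes kept their side of the threshold, 8 passed it newly and 8 lost it. A further 87 values that were not called changed sign. With 1 library a condition, the precision of the recovery, 4sU and Ft values is unknown beyond the difference between the NT libraries. The cause of the changes below was not tested.

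When 1.5-fold replaced 2-fold, the number of members past the limit in either direction went from 3 to 5 in RNA-seq at RC4 (where 52.5% of all genes were past 1.5-fold), from 1 to 2 in total RNA at RC4 (41.7%), from 0 to 1 at RC24 (18.9%), from 1 to 3 in 4sU at AS (32.7%), from 3 to 5 in 4sU at RC4 (47.9%), from 1 to 5 in Ft at RC4 (50.0%), from 2 to 5 in MB at AS (24.6%) and from 0 to 3 in MT at AS (29.3%), and by 1 member or none in the other comparisons. Scaling by library total gave 7 in RNA-seq at RC4 (where 46.7% of all genes were past 2-fold), 2 at RC8 (9.91%) and 4 in Ft at RC4 (32.9%). The mean of both NT libraries as control gave 2 in 4sU at AS and 2 in Ft at RC4. Without the adjustment for Us the median log2(Ft/4sU) of the members at AS moved from −0.08 to 0.28.

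The number of genes called for AS in total RNA went from 0 to 28 with the replicate block, which pairs these libraries, and in input from 1 to 13 with the block and 18 with DESeq2 or with no filter (0 to 1 with a replicate left out). For TIA1 in NT it went from 313 to 1792 with the block, 1273 with DESeq2 and 1042 with no filter (0 to 244 with a replicate left out), and the members called from 0 to 1 in these 3 fits. For TIA1 in AS it went from 57 to 1634 with the block, 1095 with DESeq2, 835 with no filter, 100 with median ratio size factors and 89 with the 1 kb limit (0 to 318 with a replicate left out). For the difference in binding it went from 0 to 5 with DESeq2 and 8 with no filter.

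Across cultures, AS called 27 genes, 123 with DESeq2 (with 1 member in place of 0), 60 with Ft added, 12 with NT libraries of the same time and 5 to 43 with a culture left out. RC4 called 881 genes, 1866 with Ft added, 344 with NT libraries of the same time and 164 to 833 with a culture left out, with 0 to 3 members. MT against MB called 5179 to 6099 genes with a replicate left out, and 7 members throughout. With the replicate block Hspa5 passed as lower in TIA1-bound RNA of NT (adjusted p = 0.00606 by edgeR), and Dnajb11 as higher in MT (adjusted p = 0.0439), where no source used here says that a shared number marks a pair. The block changed no other call for a member.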
